A study of Homo sapiens with 12 samples.

Results

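The ETS transcription factors examined here were 10 genes, EHF, ELF3, ELF1, ELK3, ETS1, ETS2, ETV1, ETV4, ETV5 and FLI1, out of 60607 gene IDs in the count table. They were listed by symbol, and each symbol matched 1 gene ID. EHF had been picked because it went from 0 counts in the control to clear late expression, so its levels are described without a test. Of the 10 genes, 9 passed the filter on low counts and ELF3 did not. RNA was sequenced from 12 libraries of AC16, a human line made by fusing ventricular heart cells with transformed fibroblasts, wild type in every group. The 4 groups of 3 libraries were a control in DMEM and cells given 0.1 µM doxorubicin, an anthracycline that poisons topoisomerase II, for 2, 4 or 6 days. Library names give the exposures as 48, 96 and 112 h and carry day 6 for every group, and the protocol places the exposures before harvest without saying whether each ended at harvest. Whether the 3 libraries of a group were separate cultures is not stated, and p-values here measure the spread between libraries only.

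Library totals ran from 14835743 to 21226441 counts, and the mitochondrial share of counts ran from 5.51% to 8.34%. Control replicate 2, at 8.26%, and day 2 replicate 3, at 5.51%, stood apart from the other libraries of their groups in that share. The label calls the cells cardiomyocytes, but of 12 cardiomyocyte markers only 2 passed the filter, MYL2 had 0 counts in every library, and the markers summed to between 0.958 and 2.58 normalised CPM in a library. Fibroblast markers, all 10 of which passed, summed to between 4598 and 8885 CPM. Normalised CPM here means a count divided by the library total, after TMM scaling, and expressed as CPM, and a gene counts as risen or fallen when its Benjamini-Hochberg adjusted p in edgeR's quasi-likelihood test, over all 17320 tested genes, was under 0.05. Fold changes are log2 values with their SE.

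ETS proteins share a winged helix-turn-helix domain that binds DNA around the core GGAA, and many are phosphorylated by ERK and other MAP kinases. The family divides into groups with different habits: EHF, ELF3 and ELF5 are the epithelium-specific factors, ETV1, ETV4 and ETV5 form the PEA3 group downstream of growth factor receptors, and ELK1, ELK3 and ELK4 are partners of serum response factor. ETS1 and ETS2 act widely in mesenchymal, endothelial and lymphoid cells, FLI1 and ERG in endothelium and blood, and ERF, ETV3, ETV6 and ETV7 are known as repressors.

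Because some ETS genes are regulated through GGAA cores in their own promoters, the 250 bases before the annotated starts of the epithelium-specific members are shown here, from RefSeq on build GRCh38.p14. Each runs 5′ to 3′ on the plus strand, with every GGAA, or TTCC where the core lies on the other strand, in capitals. The windows are chr11:34624007-34624256 and chr11:34632316-34632565 for the 2 EHF starts and chr1:202010337-202010586 for ELF3.
EHF start 1: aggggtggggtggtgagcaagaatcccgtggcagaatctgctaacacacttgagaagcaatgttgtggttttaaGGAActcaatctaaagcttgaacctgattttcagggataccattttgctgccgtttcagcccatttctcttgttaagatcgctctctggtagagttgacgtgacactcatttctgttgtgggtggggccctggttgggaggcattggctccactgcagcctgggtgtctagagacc
EHF start 2: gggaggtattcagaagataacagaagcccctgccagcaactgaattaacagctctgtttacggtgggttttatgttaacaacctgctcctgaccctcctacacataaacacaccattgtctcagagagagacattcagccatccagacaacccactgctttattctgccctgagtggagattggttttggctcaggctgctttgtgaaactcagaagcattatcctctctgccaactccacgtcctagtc
ELF3: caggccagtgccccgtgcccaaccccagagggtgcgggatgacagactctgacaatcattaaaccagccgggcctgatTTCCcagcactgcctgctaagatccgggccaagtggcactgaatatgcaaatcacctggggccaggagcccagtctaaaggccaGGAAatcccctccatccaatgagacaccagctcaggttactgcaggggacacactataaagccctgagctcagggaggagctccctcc
The first EHF window held 1 GGAA core, the second held 0, and the ELF3 window held 2. Over all 35116 RefSeq windows of 250 bases, 92.7% held the core on either strand, with a median of 3 matches. The longer form GGAAG, or CTTCC on the other strand, which contains the core and was absent from these 3 windows, occurred in 65.1% of all windows. GC content was 50.0% and 47.6% at the EHF starts and 58.4% at ELF3, against a median of 58.0% over all windows. The table held starts for 6 of the 10 members.

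EHF (ENSG00000135373.13, chr11:34621093-34661057, plus strand in GENCODE 29 on GRCh38) encodes an epithelial ETS factor known from glandular and airway epithelium. Its printed windows, which lie inside these bounds, held 1 and 0 GGAA cores. EHF had 0, 0 and 0 counts in the control libraries, 14, 9 and 15 after 2 days, 39, 58 and 40 after 4 days and 243, 295 and 347 after 6 days. In normalised CPM these were 0.706, 0.616 and 0.901 after 2 days, 2.21, 3.48 and 2.20 after 4 days and 14.8, 16.1 and 16.1 after 6 days. No library of one group overlapped with a library of another, but EHF was picked for these levels, so this is description and no test.

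The mean level of EHF was 0.741 ± 0.146 CPM after 2 days, 2.63 ± 0.738 after 4 days and 15.7 ± 0.732 after 6 days (SD, n = 3 in each group). The level after 4 days was 3.55 times that after 2 days, and the level after 6 days was 5.96 times that after 4 days. As a floor, 3 counts were taken for the 3 control libraries together, which is 0.0625 CPM. The mean level was 11.8 times that floor after 2 days, 42.0 times after 4 days and 250.3 times after 6 days. The floor is a chosen value, so these ratios are not lower bounds of the change. Exact 95% Poisson intervals of the pooled counts, which cover counting error only, were 0 to 0.0769 CPM in the control, 0.526 to 1.02 CPM after 2 days, 2.19 to 3.08 CPM after 4 days and 14.7 to 16.8 CPM after 6 days. The intervals likewise describe levels for which EHF was picked and are no test of a change. Since the RNA came from bulk cultures, more cells with EHF and more EHF RNA in each cell cannot be told apart.

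Among all tested genes, 25 had 0 counts in the 3 control libraries, and 2 of these reached at least 10 CPM on average after 6 days. EHF was one, and the other was CSF2, the gene of a granulocyte and macrophage growth factor, at 42.5 CPM. CSF2 stood at 3.49 CPM after 2 days and already at 40.0 CPM after 4 days, when EHF was at 2.63 CPM. EHF was picked for this very pattern, so its place among these genes was set by that choice. Genes with 0 control counts could pass the filter only through exposed libraries.

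**Figure D1:**
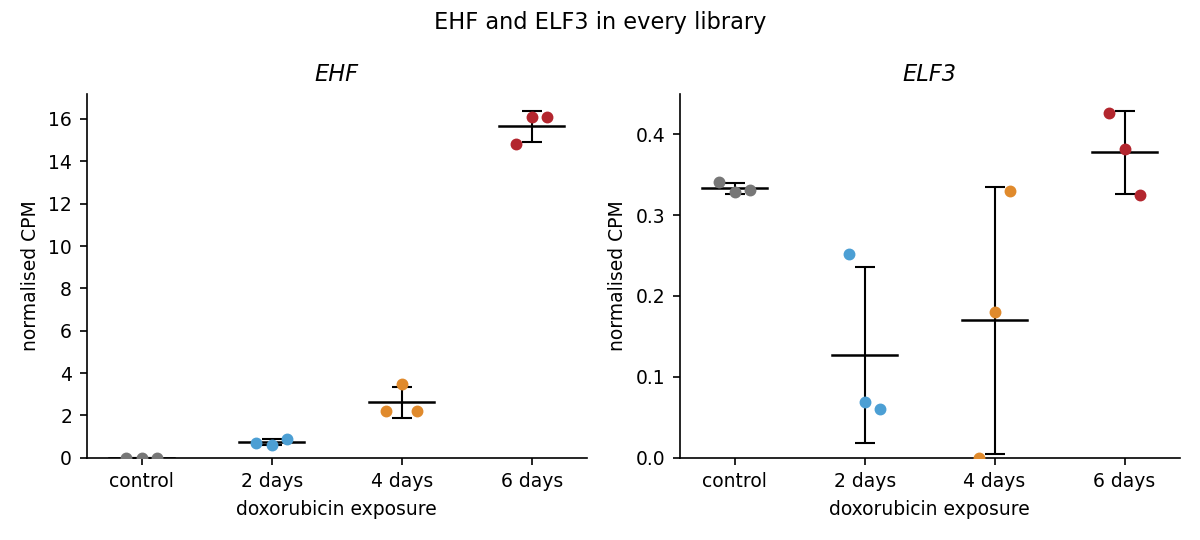
Normalised CPM of EHF (left) and ELF3 (right) in each of the 12 libraries by length of doxorubicin exposure, with points for libraries and bars for the mean and SD of 3 libraries. EHF stood at 0 in the control and between 14.8 and 16.1 CPM after 6 days, while no ELF3 library passed 0.426 CPM (the vertical scales differ).

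ELF3 (ENSG00000163435.16, chr1:202007945-202017188, plus strand), the nearest relative of EHF among the members, with 2 GGAA cores in its window, stayed near the limit of counting. Its counts were 6, 5 and 5 in the control, 5, 1 and 1 after 2 days, 0, 3 and 6 after 4 days and 7, 7 and 7 after 6 days, which is 0.333 ± 0.00660, 0.127 ± 0.108, 0.170 ± 0.165 and 0.377 ± 0.0513 CPM (SD, n = 3). The libraries of the control and of the 6-day group overlapped on this scale, and no test was made. An antisense gene, ELF3-AS1, shares 664 exonic bases with ELF3 on the opposite strand and held 161, 141, 166 and 203 counts in the 4 groups. Whether strand was used in counting is not given in the sources, so reads of such overlapping genes cannot be told apart. The same holds for ELF1 with WBP4, ETV4 with DHX8, FLI1 with SENCR and GABPA with ATP5PF. ELF5, the remaining epithelium-specific factor and the next protein-coding gene to EHF on chromosome 11 at a distance of 107.287 kb, had 0 counts in the control and 4, 3 and 3 in the exposed groups.

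Markers of epithelial cells, in which EHF is usually found, were read beside it. Of 15 markers 8 passed the filter, and the list summed to between 97.7 and 131 CPM in the control libraries, 261 and 286 after 2 days, 89.3 and 117 after 4 days, and 88.0 and 94.0 after 6 days. After 2 days 4 of the 8 had risen and 1 had fallen, 62.5% of the tested markers, where 47.2% of all tested genes passed. After 4 days 1 had risen and 2 had fallen (37.5%, where 36.5% of all tested genes passed). After 6 days 1 of the 8 had risen and 2 had fallen, 37.5% of the tested markers, where 43.7% of all tested genes passed. KRT18, a keratin gene with the highest CPM of the list, stood at 66.8 ± 9.90 CPM in the control, 193 ± 13.7 after 2 days and 42.1 ± 2.31 after 6 days (log2 fold change -0.67, SE 0.11, adjusted p = 2.78e-05). CDH1, which encodes E-cadherin, was at 4.77 ± 0.833 CPM in the control and 1.26 ± 0.407 CPM after 6 days (log2 fold change -1.88, SE 0.27, adjusted p = 2.9e-06). KRT19, a keratin of simple epithelia, was the one that had risen after 6 days, from 5.39 ± 0.569 to 17.7 ± 2.04 CPM (log2 fold change 1.70, SE 0.17, adjusted p = 1.28e-08). GRHL2, a transcription factor that defines many epithelia, had 2 counts over the control libraries and 6 after 6 days, and EPCAM, a surface protein of epithelial cells, had 26 and 19. The summed level, most of which was KRT18 in the control libraries, lay after 6 days below that of every control library while EHF was at its highest.

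ETS1 and ETS2, the founding pair of the family, both had their highest mean after 2 days. ETS1 (ENSG00000134954.14, chr11:128458761-128587558, minus strand) had the highest CPM of the 10 members in the control. Normalised CPM of ETS1 was 389, 308 and 341 in the control libraries, 423, 442 and 497 after 2 days, 279, 323 and 294 after 4 days and 284, 274 and 262 after 6 days. All 3 libraries of the 2-day group lay above all control libraries, and all 3 of the 6-day group lay below them. ETS1 rose after 2 days, with a log2 fold change of 0.39 (SE 0.09, adjusted p = 0.000665), which was 0.24 (adjusted p = 0.0188) without control replicate 2 and day 2 replicate 3, the libraries that stood apart in mitochondrial share. After 6 days it fell, at -0.34 (SE 0.09, adjusted p = 0.00276). The 4-day libraries overlapped with the control, at -0.21 (SE 0.09, adjusted p = 0.0592), a value that passed the threshold without control replicate 2 (adjusted p = 0.006) and without day 4 replicate 2 (adjusted p = 0.0354).

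Normalised CPM of ETS2 was 97.1, 98.8 and 107 in the control libraries, 160.5, 161 and 166 after 2 days, 112, 118 and 119 after 4 days and 102, 90.1 and 102 after 6 days. ETS2 (ENSG00000157557.13, chr21:38805307-38824955, plus strand), whose product is activated by ERK much like that of ETS1, was higher in each 2-day and 4-day library than in any control library, and the 6-day group overlapped with the control. It rose by 0.69 (SE 0.08, adjusted p = 5.23e-08) after 2 days and by 0.20 (SE 0.08, adjusted p = 0.0383) after 4 days. The 4-day call was lost in edgeR when any one of control replicates 1 and 2 and day 4 replicates 1, 2 and 3 was left out, with adjusted p between 0.0518 and 0.135. After 6 days the difference was -0.04 (SE 0.08, adjusted p = 0.686).

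In the PEA3 group ETV1 and ETV5 fell after 2 days and ETV4 after 6 days. ETV1 (ENSG00000006468.14, chr7:13891228-13991425, minus strand), an ETS factor known from prostate tumours and neurons, had the largest change of the 8 tested members other than EHF. Normalised CPM of ETV1 was 24.4, 19.6 and 20.1 in the control libraries, 7.11, 7.74 and 9.25 after 2 days, 19.0, 21.3 and 17.3 after 4 days and 25.04, 26.0 and 24.3 after 6 days. The 2-day libraries lay far below all others, and the 4-day and 6-day libraries overlapped with the control. ETV1 fell after 2 days at a log2 fold change of -1.42 (SE 0.13, adjusted p = 1.62e-09). Against the control it was after 4 days at -0.16 (SE 0.12, adjusted p = 0.321), and after 6 days, at 0.23 (SE 0.11, adjusted p = 0.108), the latter called without control replicate 1 (0.33, adjusted p = 0.0384).

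ETV5 (ENSG00000244405.8, chr3:186046308-186110318, minus strand), which acts in receptor tyrosine kinase signalling and in germline stem cells, was lower in every exposed library than in every control library. Normalised CPM of ETV5 was 113, 112 and 96.9 in the control libraries, 67.4, 64.8 and 79.9 after 2 days, 75.4, 85.3 and 88.7 after 4 days and 88.0, 83.2 and 85.2 after 6 days. It fell by 0.60 after 2 days (SE 0.09, adjusted p = 6.16e-06), by 0.37 after 4 days (SE 0.09, adjusted p = 0.00228) and by 0.33 after 6 days (SE 0.09, adjusted p = 0.00453) on the log2 scale. The lowest group was again that of 2 days.

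ETV4 (ENSG00000175832.13, chr17:43527844-43579620, minus strand), the third gene of the group and a regulator of matrix metalloproteinases in tumours, fell after 6 days, and its 2-day and 4-day values did not pass the threshold. Normalised CPM of ETV4 was 20.8, 22.5 and 15.1 in the control libraries, 25.8, 20.9 and 24.8 after 2 days, 16.0, 15.2 and 16.9 after 4 days and 13.5, 12.7 and 14.9 after 6 days. The 6-day libraries lay below all control libraries, though the highest of them was close to control replicate 3. Its log2 fold changes were 0.29 (SE 0.13, adjusted p = 0.0616) after 2 days, -0.28 (SE 0.13, adjusted p = 0.0951) after 4 days and -0.51 (SE 0.13, adjusted p = 0.00283) after 6 days. The 2-day value passed without control replicate 2 (0.40, adjusted p = 0.0115) or day 2 replicate 2 (0.39, adjusted p = 0.0259), and the 4-day value passed without control replicate 3 (-0.43, adjusted p = 0.0102).

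ELK3 (ENSG00000111145.8, chr12:96194382-96269835, plus strand), a serum response factor partner that can repress its targets until ERK phosphorylates it, rose at every exposure. Normalised CPM of ELK3 was 142, 119.7 and 126 in the control libraries, 174, 173 and 183 after 2 days, 212, 215 and 219 after 4 days and 226, 236 and 227 after 6 days. The 4 groups did not overlap and lay in the order of exposure. Its log2 fold change against the control was 0.45 (SE 0.08, adjusted p = 2.6e-05) after 2 days, 0.74 (SE 0.08, adjusted p = 2.78e-08) after 4 days and 0.83 (SE 0.08, adjusted p = 2.52e-09) after 6 days.

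ELF1 (ENSG00000120690.16, chr13:40932028-41061440, minus strand), a factor best known from lymphoid and endothelial cells, turned from a rise to a fall. Normalised CPM of ELF1 was 60.6, 48.3 and 58.6 in the control libraries, 73.7, 75.6 and 73.9 after 2 days, 42.3, 47.2 and 44.5 after 4 days and 40.0, 37.4 and 36.2 after 6 days. The 2-day libraries lay above the control and the 4-day and 6-day libraries below it, with no overlap in any of these comparisons. It rose by 0.41 (SE 0.09, adjusted p = 0.000448) after 2 days, and its log2 fold change was -0.32 (SE 0.09, adjusted p = 0.00639) after 4 days and -0.56 (SE 0.09, adjusted p = 1.85e-05) after 6 days.

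FLI1 (ENSG00000151702.17, chr11:128686535-128813267, plus strand), a regulator of endothelial and megakaryocyte genes, rose after 2 and 4 days. Normalised CPM of FLI1 was 19.4, 18.3 and 18.7 in the control libraries, 31.1, 25.5 and 31.1 after 2 days, 21.6, 23.8 and 27.3 after 4 days and 20.8, 22.1 and 21.7 after 6 days. Every exposed library lay above every control library. The log2 fold change was 0.64 (SE 0.11, adjusted p = 2.72e-05) after 2 days, 0.37 (SE 0.11, adjusted p = 0.00991) after 4 days and 0.20 (SE 0.11, adjusted p = 0.151) after 6 days. Without day 4 replicate 3 the 4-day value was 0.27 (adjusted p = 0.0787). Endothelial markers, of which 7 of 11 were tested and ERG is an ETS gene itself, summed to between 26.2 and 27.0 CPM in the control, 25.5 and 29.3 after 2 days, 28.6 and 30.6 after 4 days, and 25.3 and 27.6 after 6 days. TEK, an angiopoietin receptor, made up most of that sum, with means of 17.3, 18.7, 22.9 and 16.4 CPM in the 4 groups, and members moved both ways: after 4 days TIE1, PECAM1 and TEK rose (1.14, 1.00 and 0.40 on the log2 scale) while KDR, VWF and ESAM had -1.92, -1.95 and -2.22. Blood markers, of which 6 of 10 were tested and which include SPI1, summed to between 7.27 and 10.9 CPM in the control, 16.8 and 17.8 after 2 days, 25.1 and 30.4 after 4 days, and 25.6 and 27.4 after 6 days. LCP1 and CD68 had the highest means of the blood list after 6 days, at 11.8 and 7.72 CPM. In the control LCP1 and CD68 stood at 2.42 and 2.51 CPM. CD14 fell from 1.43 CPM in the control to 0.275 CPM after 6 days. Of the 6 tested blood markers, 3 had risen and 1 had fallen after 6 days. CDH5, an endothelial cadherin, had 1, 5, 2 and 1 counts in the 4 groups. SENCR, the antisense gene that overlaps with 162 exonic bases of FLI1, held 74, 149, 70 and 79 counts in the 4 groups, where FLI1 held 903, 1507, 1276 and 1216. The part of other cell types and of SENCR in the FLI1 values was not tested.

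**Figure D2:**
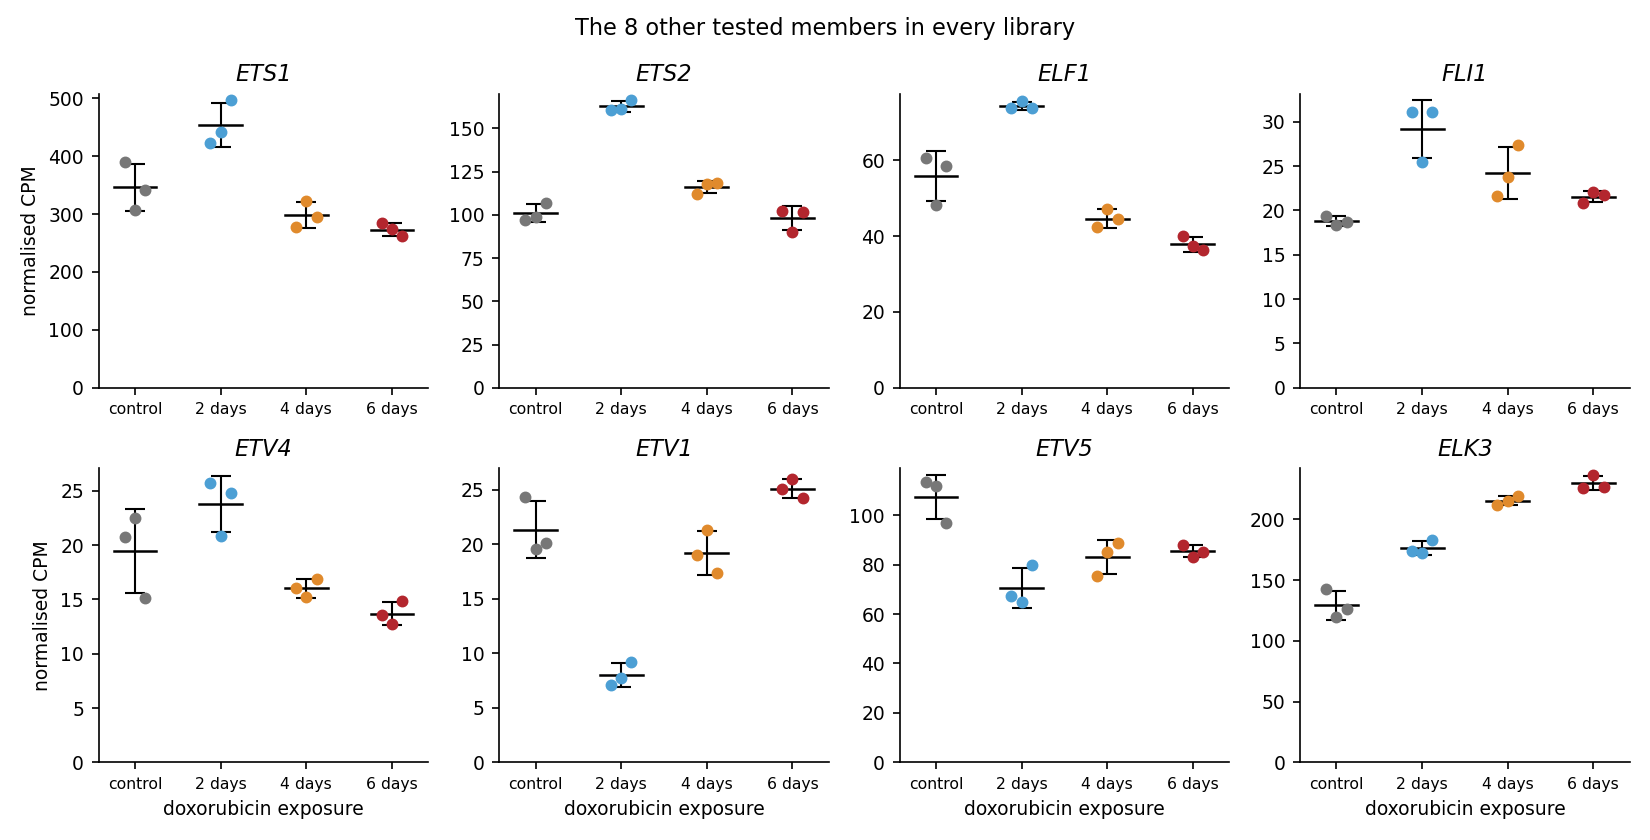
Normalised CPM of the 8 other tested members in each of the 12 libraries by length of exposure, with points for libraries and bars for the mean and SD of 3 libraries (each panel starts at 0 and has its own scale). ETS1, ETS2, ELF1, FLI1 and ETV4 had their highest mean after 2 days, ETV1 its lowest, and the ELK3 mean was higher in each group than in the one before, of which the step from 4 to 6 days did not pass the threshold.

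Counted without EHF, 7 of the 8 tested members passed the threshold after 2 days, 5 of them higher and 2 lower, where 47.2% of all tested genes passed (23.8% higher and 23.4% lower). After 4 days 5 of 8 passed, 3 higher and 2 lower (36.5% of all genes, 18.8% higher and 17.7% lower), and after 6 days 5 of 8, 1 higher and 4 lower (43.7% of all genes, 22% higher and 21.7% lower). The libraries did not overlap with the control for 7, 5 and 6 of the 8 in the same order, as for 52.2%, 44.6% and 50.9% of all genes. The median absolute log2 fold change of the 8 was 0.53 after 2 days against 0.39 over all genes, 0.30 against 0.30 after 4 days and 0.33 against 0.35 after 6 days. With the 9 other tested ETS genes included, 14, 9 and 10 of 17 passed after 2, 4 and 6 days. Of these 17 genes 16 averaged 10 CPM or more over the 12 libraries, and among all genes at that level 58.6%, 46.6% and 53.6% passed in the 3 comparisons.

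Between the exposures, all 8 members passed for 4 against 2 days, 3 higher and 5 lower, where 34.8% of all tested genes did (16.3% higher and 18.5% lower), or 45.3% of those that averaged 10 CPM or more. The libraries of the 2 groups did not overlap for 6 of the 8, as for 45.9% of all genes. ETV1 rose between these times by 1.26 (SE 0.13, adjusted p = 3.13e-08), ELK3 by 0.29 (SE 0.07, adjusted p = 0.00412) and ETV5 by 0.23 (SE 0.09, adjusted p = 0.0495). ELF1 had a log2 difference of -0.74 (SE 0.09, adjusted p = 5.29e-07), ETS1 of -0.60 (SE 0.09, adjusted p = 6.67e-06), ETV4 of -0.57 (SE 0.13, adjusted p = 0.00101), ETS2 of -0.48 (SE 0.08, adjusted p = 1.76e-05) and FLI1 of -0.27 (SE 0.11, adjusted p = 0.0475). The ETV5 call was lost without day 2 replicate 1 or 2 or day 4 replicate 2 or 3, with adjusted p between 0.143 and 0.227, and the FLI1 call without day 2 replicate 1 or 3 or day 4 replicate 1 or 2, with adjusted p between 0.106 and 0.228.

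For 6 against 4 days 1 of the 8 members passed, where 6.78% of all tested genes did (3.05% higher and 3.73% lower), or 9.85% of those that averaged 10 CPM or more. ETV1 was that gene, at 0.39 (SE 0.12, adjusted p = 0.0419), and it missed the threshold when any library of the 2 groups other than day 4 replicate 2 was left out, with adjusted p between 0.07 and 0.174. ETS2 was at -0.25 (SE 0.08, adjusted p = 0.0501) and ELF1 at -0.24 (SE 0.09, adjusted p = 0.122). For 5 of the 8 the libraries of these groups did not overlap, as for 27.6% of all genes. Of the 8 members 5 had their highest group mean after 2 days, 2 after 6 days, 1 in the control and 0 after 4 days. Over all tested genes the highest mean fell after 2 days for 30%, after 6 days for 23.8%, in the control for 32.5% and after 4 days for 13.8%.

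**Figure D3:**
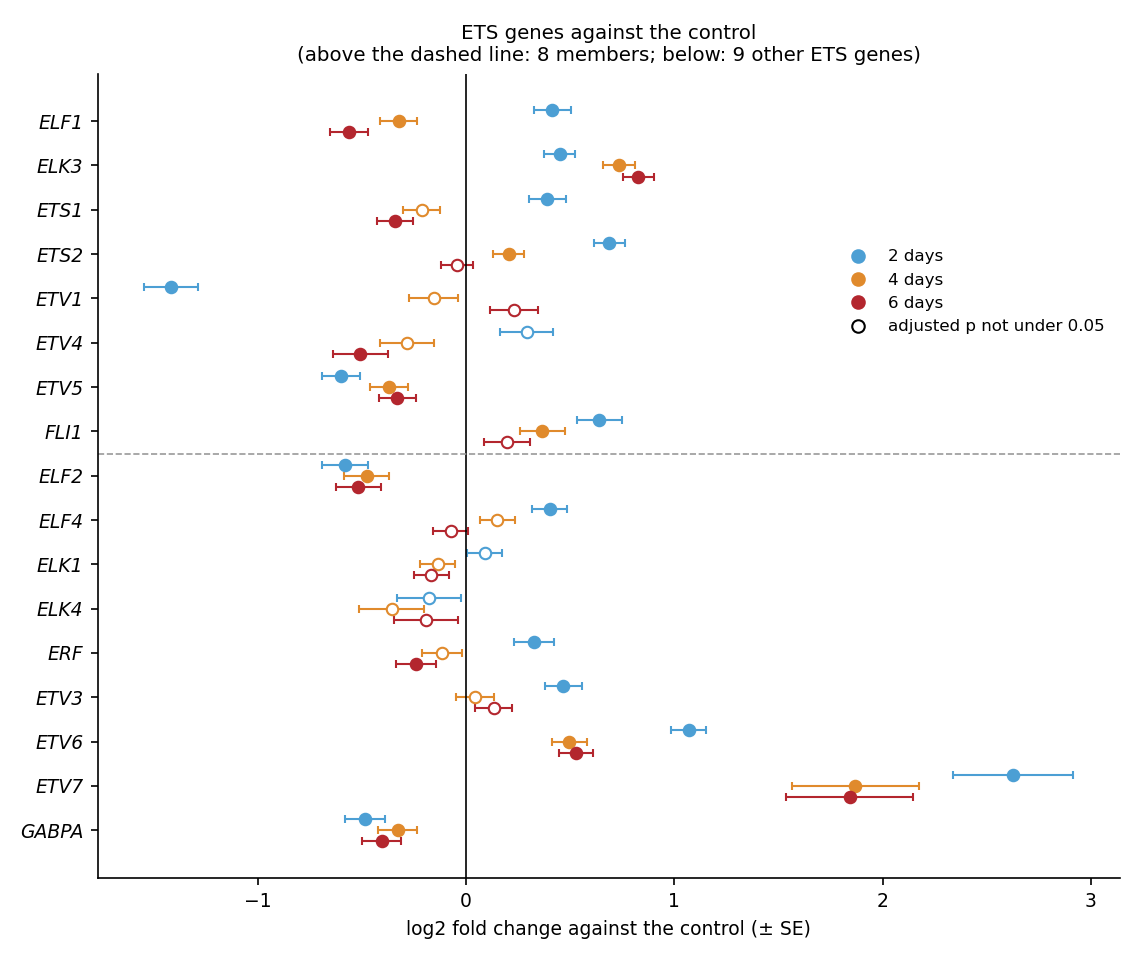
Log2 fold change against the control, with SE, of the 8 tested members (above the dashed line) and 9 other ETS genes (below it) after 2, 4 and 6 days, from edgeR. Filled points passed an adjusted p of 0.05; ETV7 rose most and the 2-day value of ETV1 was the lowest.

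Of 18 further ETS genes, 9 passed the filter. The repressors ETV7 and ETV6 rose at all 3 exposures. ETV7 was at 0.908, 0.919 and 0.330 CPM in the control, 4.84, 3.77 and 4.92 after 2 days, 2.71, 2.22 and 3.07 after 4 days and 3.23, 2.34 and 2.36 after 6 days, so that no exposed library overlapped with the control. Its log2 fold changes were 2.63 (SE 0.29, adjusted p = 5.04e-08), 1.87 (SE 0.31, adjusted p = 2.96e-05) and 1.84 (SE 0.31, adjusted p = 2.51e-05). ETV6, a repressor needed for blood formation, had a control mean of 71.4 ± 3.69 CPM and rose by 1.07, 0.50 and 0.53 in the same order (adjusted p = 9.05e-11, 3.24e-05 and 9.96e-06).

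After 2 days ETV3, ELF4 and ERF rose as well, by 0.47 (SE 0.09, adjusted p = 0.000112), 0.40 (SE 0.08, adjusted p = 0.000303) and 0.33 (SE 0.10, adjusted p = 0.00666). ERF, a repressor that ERK moves out of the nucleus, was at -0.24 (SE 0.10, adjusted p = 0.0469) after 6 days. That call was lost in 10 of 14 alternative runs, among them DESeq2 (adjusted p = 0.0533) and edgeR with a replicate block (adjusted p = 0.0572). They also included leaving out control replicate 2 (-0.16, adjusted p = 0.194), day 6 replicate 1 (-0.24, adjusted p = 0.0978) or day 6 replicate 2 (-0.18, adjusted p = 0.21). With libraries scaled by their totals alone the 2-day rise of ERF missed the threshold (0.20, adjusted p = 0.0829).

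GABPA and ELF2 fell at all 3 exposures. GABPA, the DNA-binding subunit of a complex that serves many mitochondrial and housekeeping genes, was at 106, 82.8 and 104 CPM in the control libraries and had log2 fold changes of -0.49, -0.33 and -0.41 (adjusted p = 0.000143, 0.00759 and 0.00103). Its 4-day call was lost without day 4 replicate 3 (-0.25, adjusted p = 0.065). ELF2, a relative of ELF1 and ELF4, had -0.58, -0.48 and -0.52 (adjusted p = 0.000103, 0.00117 and 0.0004). ELK1 and ELK4 passed at no exposure against the control, and ELK4 ranged from 119 to 196 CPM within the control. Without control replicate 2 ELK4 passed at all 3 exposures, with log2 fold changes of -0.36, -0.53 and -0.37.

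The 9 ETS genes that did not pass the filter had between 0 and 93 counts over all 12 libraries. FEV had 0 counts throughout, SPIC 2, SPI1 and SPIB 3 each, ETV3L 4, ELF5 10 and SPDEF 19. ERG had 7, 23, 9 and 26 counts in the 4 groups and ETV2, a regulator of early endothelium, had 33, 22, 21 and 17. Several ETS genes are neighbours with no protein-coding gene between them in the reference table. ETS1 and FLI1 lie 98.976 kb apart. Both rose after 2 days (0.39 and 0.64), and both were lower after 4 than after 2 days (-0.60 and -0.27). After 6 days ETS1 had fallen while FLI1 was at 0.20 and had not passed. ETS2 and ERG lie 143.526 kb apart, and ETV3 and ETV3L 21.382 kb.

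Per kilobase of exon, the scale on which genes can be compared, ETS1 stood highest in the control at 48.4 CPM per kb, followed by ELK3 at 27.8, ETS2 at 21.97, ETV5 at 18.5, ELF1 at 12.9 and ETV4 at 5.40. FLI1 at 2.30 and ETV1 at 2.22 overlapped, ELF3 was at 0.0463, and EHF had 0 counts. After 4 and 6 days ELK3 stood above ETS1, with 49.4 against 38.2 CPM per kb after 6 days and no overlap of the libraries. EHF reached 3.57 CPM per kb after 6 days, a level that overlapped with ETV4 at 3.80 and lay above FLI1 at 2.64 and ETV1 at 2.61, which again overlapped with each other. After 2 days EHF was at 0.169 CPM per kb, below ETV1 at 0.835, and after 4 days at 0.599, below ETV1 at 2.00.

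**Figure D4:**
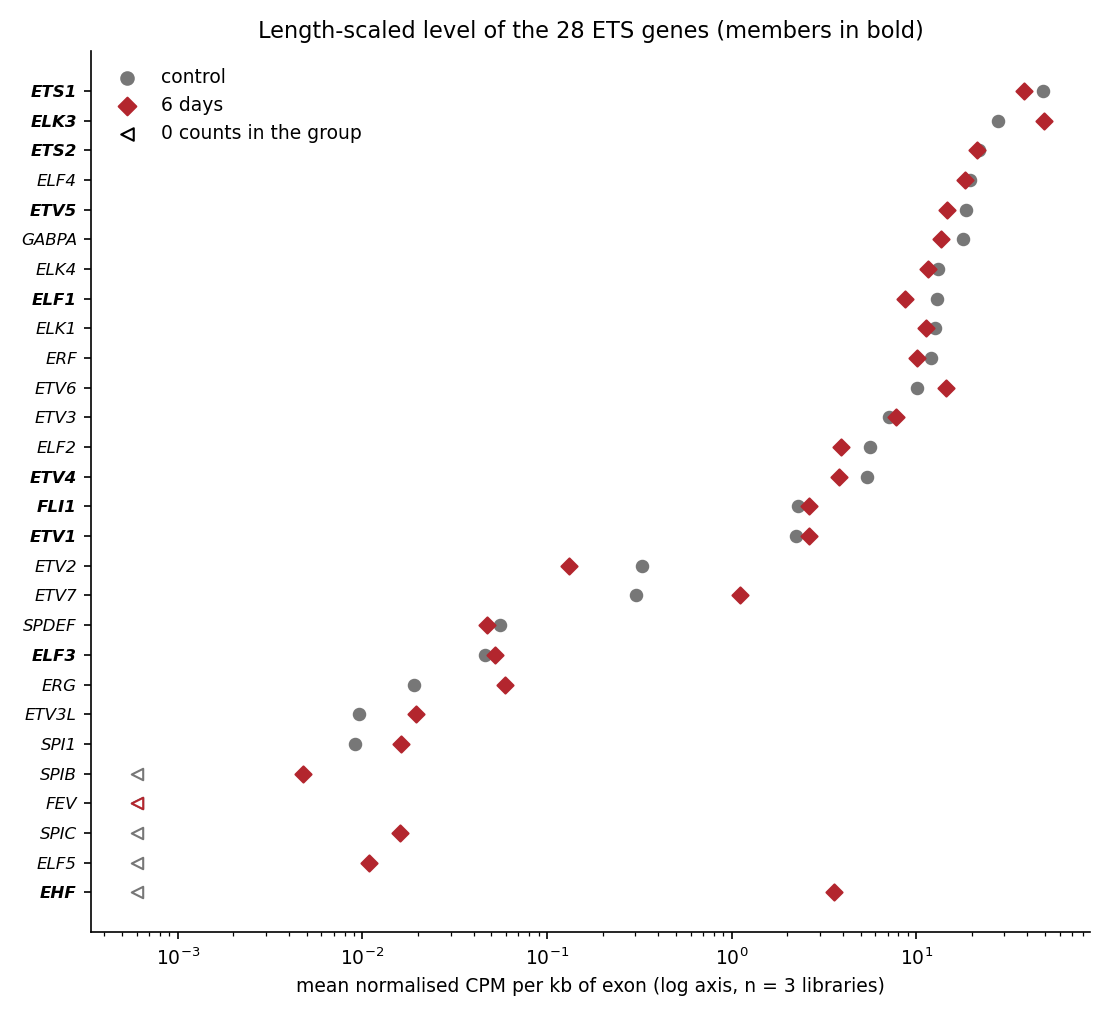
Mean normalised CPM per kb of exon (log axis) of all 28 ETS genes in the control (circles) and after 6 days (diamonds), n = 3 libraries, ordered by the control level, with open triangles for groups with 0 counts. EHF moved from 0 counts to 3.57 CPM per kb, into the range of ETV4, FLI1 and ETV1.

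Among 19 cofactors and regulators of ETS proteins, all of which were tested, 14 passed after 2 days, 7 higher and 7 lower (73.7% of the list, where 47.2% of all tested genes passed), with a median log2 fold change of -0.11 against -0.01 over all genes. After 4 days 7 passed, 1 higher and 6 lower (36.8%, where 36.5% of all genes passed), and after 6 days 10 passed, 2 higher and 8 lower (52.6%, where 43.7% of all genes passed). Among all genes that averaged 10 CPM or more, 58.6%, 46.6% and 53.6% passed after 2, 4 and 6 days. FOS, an AP-1 subunit that binds next to ETS proteins at composite sites, fell from 74.2 ± 10.6 to 18.0 ± 2.39 CPM after 2 days (log2 fold change -2.05, SE 0.11, adjusted p = 1.61e-13). SP100, a nuclear body protein that binds ETS1, rose from 112 ± 6.48 to 181 ± 8.34 CPM (log2 fold change 0.70, SE 0.08, adjusted p = 3.75e-08). SRF, the partner of the ELK proteins, rose from 35.5 ± 2.86 to 52.7 ± 1.37 CPM (log2 fold change 0.57, SE 0.09, adjusted p = 1.35e-05).

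Of 17 genes listed as outputs of the ERK pathway 16 were tested, and 12 passed after 2 days (8 higher, 4 lower), 12 after 4 days (7 higher, 5 lower) and 10 after 6 days (5 higher, 5 lower). These were 75%, 75% and 62.5% of the tested genes of the list, where 47.2%, 36.5% and 43.7% of all tested genes passed. Of all genes that averaged 10 CPM or more, 58.6%, 46.6% and 53.6% passed. Their median log2 fold change was 0.33 after 2 days, 0.08 after 4 days and -0.01 after 6 days, against -0.01, -0.003 and -0.01 over all genes. CCND1, which encodes cyclin D1, rose from 181 ± 6.54 to 569 ± 33.5 CPM after 2 days (log2 fold change 1.65, SE 0.07, adjusted p = 3.1e-15) and to 764 ± 28.5 CPM after 4 days. EPHA2, an ephrin receptor, rose to 275 ± 9.46 CPM from 99.96 ± 12.2 after 2 days (log2 fold change 1.46, SE 0.09, adjusted p = 8.3e-13). EGR1, an early growth response factor and a classic ELK target, fell from 659.8 ± 65.2 to 155 ± 9.35 CPM after 2 days (log2 fold change -2.09, SE 0.13, adjusted p = 2.36e-10) and to 159 ± 36.2 CPM after 4 days. MYC, a growth regulator, was at 132 ± 10.7 CPM in the control and 50.0 ± 5.37 CPM after 4 days (log2 fold change -1.40, SE 0.11, adjusted p = 1.92e-10).

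Of 23 genes described as ETS targets 17 were tested. After 2 days 9 passed (8 higher, 1 lower), after 4 days 10 (8 higher, 2 lower) and after 6 days 11 (9 higher, 2 lower), with medians of 0.49, 0.47 and 0.34 against -0.01, -0.003 and -0.01 over all genes. The shares called were 52.9%, 58.8% and 64.7%, beside 47.2%, 36.5% and 43.7% of all tested genes and 58.6%, 46.6% and 53.6% of those that averaged 10 CPM or more. After 6 days MMP14, a membrane-anchored collagenase, had risen from 110.0 ± 5.98 to 392 ± 13.9 CPM (log2 fold change 1.83, SE 0.07, adjusted p = 6.42e-16). PLAU, which encodes urokinase, rose from 11.7 ± 2.74 to 59.0 ± 4.58 CPM (log2 fold change 2.34, SE 0.14, adjusted p = 6.94e-12), and VIM, the mesenchymal filament vimentin, from 2133 ± 197 to 4026 ± 116 CPM (log2 fold change 0.92, SE 0.08, adjusted p = 7.95e-10). These genes have many other regulators, and binding of ETS proteins was not measured.

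The nearest tested protein-coding genes around EHF on chromosome 11 all had counts in the control, at a mean of 3.57 CPM or more. CAT, which encodes catalase, lies 149.03 kb before EHF and rose from 12.98 ± 2.21 CPM in the control to 19.8 ± 1.93 after 6 days (log2 fold change 0.61, SE 0.12, adjusted p = 0.000258). ABTB2, at 263.084 kb, rose most after 2 days, from 3.57 ± 0.532 to 15.9 ± 1.06 CPM (2.15, SE 0.15, adjusted p = 2.65e-11), and was at 8.38 ± 1.32 CPM after 6 days. On the other side APIP, a methionine salvage enzyme, fell, at -0.31 after 6 days (SE 0.10, adjusted p = 0.015), and PDHX, a subunit of pyruvate dehydrogenase, did not pass. Beside ELF3, RNPEP and TIMM17A rose after 2 days, by 0.37 (SE 0.09, adjusted p = 0.00133) and 0.42 (SE 0.09, adjusted p = 0.000305). UBE2T, a ubiquitin-conjugating enzyme of the Fanconi pathway, was at -1.07 after 2 days (SE 0.10, adjusted p = 2.57e-09).

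The profile of EHF over the 12 libraries was compared with those of other tested protein-coding genes. The measure was the root mean square difference of centred log2 CPM with a prior count of 2. A filter on symbols left out some of these genes, such as those whose symbol ends in P and digits. MMP1 was one of them, with means of 0.0219, 0.156, 1.38 and 3.55 CPM in the 4 groups. The nearest of the genes compared were CXCL8 at 0.753, PTCHD4 at 0.935, CXCL6 at 0.942, C3 at 0.983 and CXCL5 at 1.02. CXCL8, CXCL6 and CXCL5 encode chemokines that attract neutrophils, C3 is the central complement protein and PTCHD4 a patched-domain membrane protein. CXCL8 went from 14.0 CPM in the control to 95.8, 616 and 882 CPM, and C3 from 2.93 to 112, 220 and 533 CPM.

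As a percent of its mean after 6 days, EHF stood at 4.73% after 2 days and 16.8% after 4 days, and each of these 5 genes stood higher at both times, between 10.7% and 23.4% after 2 days and between 29.99% and 69.8% after 4 days. With a prior count of 0.5 only C3 and CXCL8 remained among the 5 nearest, beside CXCL1, CSF3 and DMBT1. For ETV4 the nearest of the genes compared were ARID5A at 0.115, FAM83G at 0.118 and ZNF408 at 0.131. ELF3 did not pass the filter and was given no profile.

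**Figure D5:**
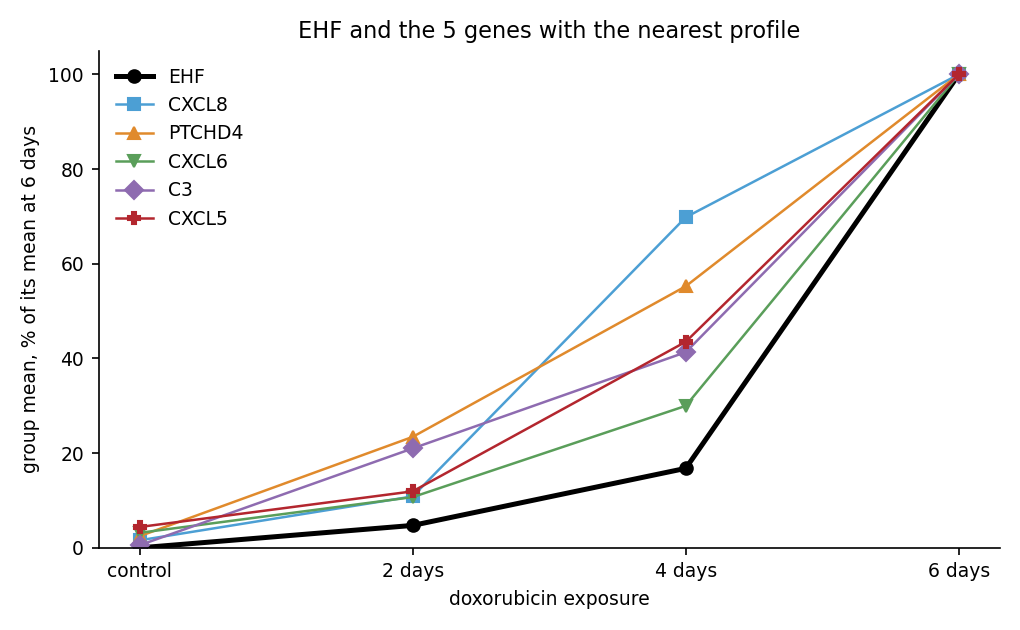
Group means of EHF and of the 5 genes with the nearest profile among those compared, each as a percent of its own mean after 6 days, by length of doxorubicin exposure (n = 3 libraries a group). EHF lay lowest of the 6 genes after 2 and 4 days, at 4.73% and 16.8%.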

How the data were processed

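Raw counts per gene were deposited by the authors as 1 table with 1 column for each of the 12 libraries and 60607 versioned Ensembl IDs, per the file headers. Per the submitters' processing notes, the tools named were HTSeq 0.13.5, STAR 2.7.8, Trimmomatic 0.38 and fastp 0.23.2, and the build was GRCh38.p13, with no roles given. Symbols were taken from a table of gene names, which matched 42023 IDs, and positions and exon lengths from GENCODE 29. Testing used edgeR 4.0.16 (R 4.3.3): filterByExpr with min.count 10 and min.total.count 15, which kept 17320 genes, TMM scaling, 1 fit of all 12 libraries with a mean per group, robust quasi-likelihood tests, and Benjamini-Hochberg adjustment over all tested genes, with calls under 0.05. Each SE is the absolute log2 fold change over the square root of the F statistic. No pair of libraries within a group had counts close enough to be copies, and libraries of different groups were not compared for this. The tests were tried first on simulated data.

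The members and the gene lists were chosen with earlier results of these data known, and EHF for its own levels, so no list is independent evidence. The genes named were all members, the other ETS genes called against the control, up to 3 called genes with the smallest p from each further list in the comparison with the most calls, the neighbours of EHF and ELF3, neighbouring ETS pairs and the nearest profiles; 1 gene under this rule is not reported here. CSF2, KRT18, KRT19, CDH1, GRHL2, EPCAM, CDH5, TEK, TIE1, PECAM1, KDR, VWF, ESAM, LCP1, CD68, CD14, MMP1 and SENCR were named after their values were seen. Alternatives were other scalings, filters, DESeq2 1.42.0, a replicate block, the 2 compared groups alone, each library left out, and, chosen after seeing the data, both libraries that stood apart in mitochondrial share left out.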

Additional observations from a re-analysis of the deposited data

Results flagged for a closer look

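The effect of doxorubicin differed between 2 and 4 days of exposure for 14 of the 17 tested ETS genes other than EHF, tested directly between the 2 groups with edgeR, where 34.8% of all tested genes differed. The level was higher after 4 days for ETV1 (log2 difference 1.26, adjusted p = 3.13e-08), ELK3 (0.29, adjusted p = 0.00412) and ETV5 (0.23, adjusted p = 0.0495). It was lower after 4 days for ETV7 (-0.76), ELF1 (-0.74), ETS1 (-0.60), ETV4 (-0.57), ETV6 (-0.57), ETS2 (-0.48), ERF (-0.44), ETV3 (-0.42), FLI1 (-0.27), ELF4 (-0.25) and ELK1 (-0.23). The ELK1 difference missed the threshold without any one of these groups' libraries other than day 4 replicate 2 (adjusted p between 0.0649 and 0.122, and 0.0439 without that library), that of ELF4 without day 2 replicate 1 or day 4 replicate 1 or 2 (adjusted p between 0.0514 and 0.0813), and that of ETV7 without day 4 replicate 2 (-0.65, adjusted p = 0.0609). Between 4 and 6 days 1 of the 17 differed, ETV1 (0.39, adjusted p = 0.0419), where 6.78% of all tested genes did. That ETV1 call was lost in 6 of 13 alternative runs.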

How the results depend on the processing

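Of 85 fold changes, 17 ETS genes in 5 comparisons, 48 passed the threshold. Of these 37 passed under every alternative run and 0 changed sign, and of the 37 that did not pass 27 passed under none. Leaving out 1 library at a time, the number of the 17 that passed ranged from 14 to 16 after 2 days, 6 to 11 after 4 days and 9 to 11 after 6 days against the control, from 10 to 12 for 4 against 2 days, and from 0 to 1 for 6 against 4 days. For 6 against 4 days, where 1 passed, the count was 2 with DESeq2 and 2 with the compared groups alone. Replicate numbers did not pair the libraries: of 18 same-numbered pairs 0 had deviations correlated above 0.1, and 3 of 12 libraries correlated best with their own number. With the replicate number as a block the counts were 14, 9 and 9 against the control, 11 for 4 against 2 days and 0 for 6 against 4 days.

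With libraries scaled by their totals alone the median log2 fold change of all genes moved to -0.14 after 2 days, EHF after 6 days was at 16.4 CPM, and 4 differences that had not passed changed sign, ELK1 after 2 days (-0.033) and, for 6 against 4 days, ELF2 (0.033), ELK1 (0.042) and ETV7 (0.045). Leaving out 1 library at a time changed the sign of other differences that had not passed. For 6 against 4 days ETV5 ranged from -0.027 to 0.088, ELF2 from -0.10 to 0.092, ELK1 from -0.073 to 0.0046, ETV6 from -0.019 to 0.074 and ETV7 from -0.19 to 0.088. ELF2 for 4 against 2 days ranged from -0.032 to 0.21, ETV3 after 4 days from -0.020 to 0.11 and ETS2 after 6 days from -0.074 to 0.015. With a prior count of 0.5, 2 of the 5 genes nearest to EHF were shared. The causes were not tested. Depth limits what can be said of ELF3 and of the 9 other ETS genes with few counts.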
